A study of Bos taurus with 2 samples.

Results

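RNA-Seq values for 10 genes of fatty acid synthesis, fatty acid uptake and lipid droplets were examined in bovine embryos injected with siRNA against CDKN1C. The genes, chosen by name, were FABP3, FABP5, FASN, SCD, ELOVL6, SREBF1, PLIN2, PLIN3, CPT1A and ACSL3, and 9 of the 10 matched a symbol among the 21209 in the files. SCD, the stearoyl-CoA desaturase gene, matched none and was not analysed here. The samples were 1 pool of IVF embryos injected at the zygote stage with CDKN1C siRNA and 1 pool of IVF embryos that were sham-injected, meaning punctured with the needle without any siRNA. Embryos that received siRNA against GFP, and embryos left without injection, were not analysed here, so the puncture is shared by both pools but the delivery of siRNA is not. How many embryos each pool held the labels do not give. For RNA extraction the paper describes collecting blastocysts of every treatment group, and it does not restate the stage for the sequenced pools.

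Fatty acids are built in the cytosol from acetyl-CoA, which ACLY supplies, by the multifunctional enzyme fatty acid synthase, and the product, palmitate, is then lengthened by elongases of the ELOVL family and desaturated by SCD. SREBF1 encodes the transcription factor that drives these genes, whereas its relative SREBF2 mainly drives cholesterol synthesis. Fatty acids that enter a cell are bound by small carrier proteins of the FABP family, activated to acyl-CoA by ACSL enzymes, and either burned in mitochondria, where CPT1 controls entry, or stored as triglyceride in droplets coated by perilipins. Bovine oocytes and early embryos are rich in lipid droplets, and embryos cultured in vitro are known to hold many of them.

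The values are FPKM, fragment numbers divided by transcript length and by a scaling factor of the pool, here based on the upper quartile. Comparisons between genes still depend on the gene models and on the amplification of the RNA, and comparisons between pools on the scaling. What amplification and gene models do to the levels was not tested. A difference is given as the plain ratio of the 2 FPKM values and as the log2 difference, which is log2 of injected over sham after 1 FPKM is added to both. Genes whose 2 values averaged 1 FPKM or more were compared, 7984 in all, and a difference of at least 2-fold on that log2 scale was counted. All 9 genes passed this minimum. With 1 library in each group there is no replicate, no p-value and no error for any difference, and library and treatment cannot be told apart. Sequencing depth could not be read from values scaled in this way, and only the FPKM worth of 1 fragment could be compared between the pools. Among 3044 loci below a mean of 0.3 FPKM but above 0 in both pools, the injected-to-sham ratios piled up near 0.894, with 352 loci within 0.1 log2 of it and smaller piles near 0.447 and 1.79, which are the steps that 1 fragment against 2 and 2 against 1 would give. A fragment was thus worth about 0.894 times as much FPKM in the injected pool. The absolute number of fragments is unknown.

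The targeted gene, CDKN1C, was 14.6 FPKM in the injected pool against 49.5 FPKM in the sham pool. Summed FPKM over all loci in the injected pool was 75.9% of that in the sham pool, and the median log2 difference of all compared genes was -0.17. It was 0.17 when both pools were scaled to the same total. Of the compared genes, 4.92% were higher by 2-fold or more and 15.7% lower by 2-fold or more in the injected pool, which was 7.72% and 11% with the median of all genes set to 0 and 12% and 7.32% with the same total. Directions of small differences therefore depend on the scaling, and are given below with that in view. Embryo markers were present in both pools. The trophectoderm keratin gene KRT18 was 5389 FPKM after siRNA injection against 11245 FPKM after the sham, and POU5F1 of the inner cell mass was 56.3 against 170.1 FPKM. Of 6 adipocyte markers, none reached 1 FPKM, and ADIPOQ, CIDEC and FABP4 were listed at 0 in both.

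Across the 9 genes, 2 were lower by 2-fold or more in the injected pool (FABP3 and SREBF1), next to 15.7% of all compared genes, 7 lay within 2-fold and 0 were higher by 2-fold or more. Their median log2 difference was -0.20, close to the -0.17 of all compared genes. Summed, the 9 genes gave 551 FPKM after siRNA injection against 1091 FPKM after the sham, and FABP3 alone made up 65.1% and 78.1% of these sums. FABP3, FASN, PLIN2 and SREBF1 were lower in the injected pool under every alternative in which they were compared, and ELOVL6 and FABP5 were higher under every one. PLIN3, ACSL3 and CPT1A changed sign under at least 1 alternative.

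**Figure D1:**
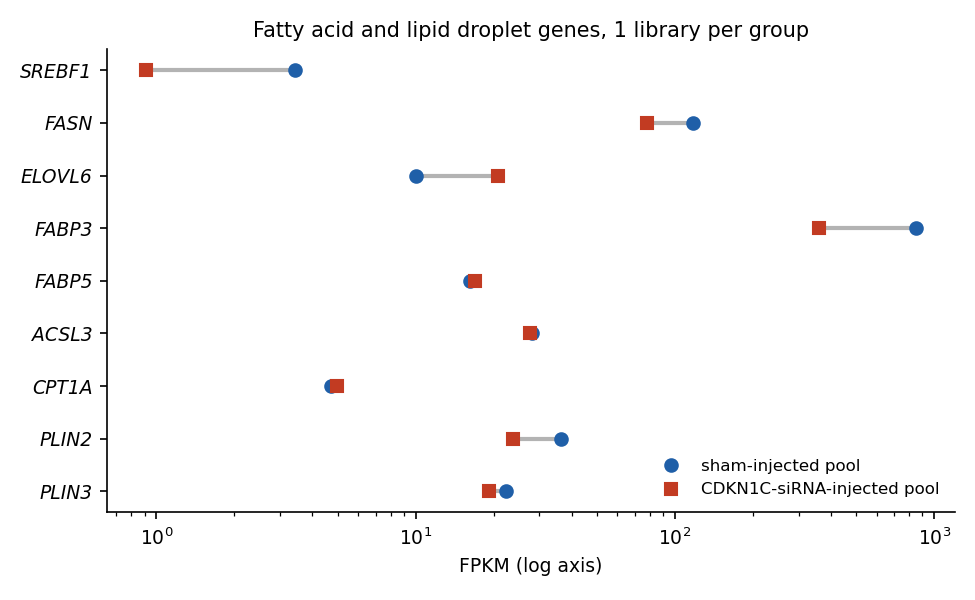
FPKM (horizontal, log axis) of each of the 9 genes (vertical) with blue circles for sham injection and red squares for CDKN1C siRNA, 1 library each, with grey bars joining the 2 values. The squares lie clearly to the left of the circles for SREBF1 and FABP3, to the right for ELOVL6, and nearly on them for FABP5, ACSL3 and CPT1A.

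SREBF1, the regulator, had the lowest level of the 9 genes. It was 0.910 FPKM after siRNA injection against 3.42 FPKM after the sham, 3.76-fold lower after injection, with a log2 difference of -1.21. Its locus on chromosome 19 of bosTau7 runs from 35434948 to 35450984 and is shared in the files with the microRNA gene MIR33B, listed at 0 in both pools. Among the 500 genes closest in mean level, SREBF1 lay at percentile 4.0 of the log2 differences. That places it among the lowest for its level of expression, where 7.6% of genes were lower by 2-fold or more. Because the level is so near the added 1 FPKM, the size of the log2 difference moves with that choice, from -1.80 with 0.1 FPKM added to -0.51 with 5 FPKM added. It was -0.96 with the same total in both pools. SREBF2, the cholesterol-directed relative, was 6.67 against 7.98 FPKM. The ratio of SREBF2 to SREBF1, in which any scaling of a whole pool cancels, was 7.33 in the injected pool and 2.33 in the sham pool.

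FASN, fatty acid synthase, was the second most abundant of the 9. On chromosome 19 from 51763829 to 51782535, it was 78.1 FPKM after siRNA injection against 117.6 FPKM after the sham, 1.51-fold lower with a log2 difference of -0.58. This is within 2-fold, and 43.0% of the 500 genes of similar level were as low or lower. ACLY, which makes its acetyl-CoA, was nearly equal at 80.03 against 80.7 FPKM, so that the ratio of FASN to ACLY was 0.976 in the injected pool and 1.46 in the sham pool. ACACA, whose enzyme makes the malonyl-CoA that FASN uses, was below 1 FPKM in both pools, at 0.882 against 0.371 FPKM, and was not compared.

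ELOVL6, the elongase that acts on palmitate, was the member with the most positive difference. On chromosome 6 from 16690800 to 16705291, it was 20.7 FPKM after siRNA injection against 10.1 FPKM after the sham, 2.06-fold higher, with a log2 difference of 0.97 that falls just short of 2-fold after 1 FPKM is added. It was past 2-fold under 4 of 8 alternatives, at 1.14 with the median of all genes set to 0 and at 1.34 with the same total in both pools. Of the 500 genes of similar level, 92.6% had an equal or lower difference and 6.6% were higher by 2-fold or more. The locus of the files spans 14492 bp, against 134448 bp for the ELOVL6 gene in the RefSeq table of another assembly, ARS-UCD2.0, and what the difference in gene model does to the value was not tested.

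The elongase family as a whole had nearly the same summed level in both pools and a different make-up. ELOVL1 to ELOVL7 added up to 39.1 FPKM after siRNA injection against 38.7 FPKM after the sham. ELOVL1, an elongase of saturated very long chains, was 7.24 FPKM after siRNA injection against 21.2 FPKM after the sham, with a log2 difference of -1.43. ELOVL6 took 52.9% of the family's FPKM in the injected pool against 26.0% in the sham pool, and ELOVL1 took 18.5% against 54.8%. ELOVL5, which lengthens polyunsaturated chains, took 25.2% against 16.6%. By FPKM, the highest elongase was ELOVL6 in the injected pool and ELOVL1 in the sham pool. This order and the family shares depend on the ELOVL6 gene model described above. The ratio of ELOVL6 to ELOVL1 was 2.86 in the injected pool and 0.475 in the sham pool, a contrast that no scaling of a pool can change.

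**Figure D2:**
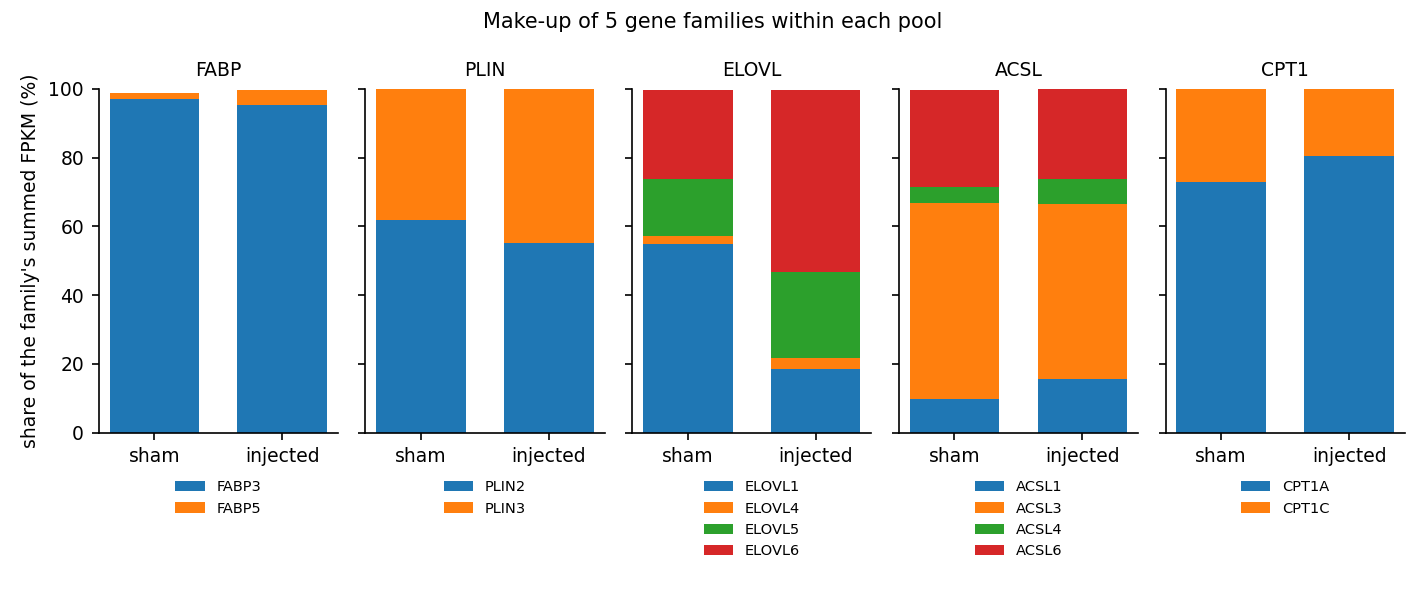
Share of each family's summed FPKM (vertical, percent) held by its genes in the sham-injected and the CDKN1C-siRNA-injected pool, 1 library each, for the fatty acid binding protein, perilipin, elongase, acyl-CoA synthetase and carnitine palmitoyltransferase 1 genes that hold more than 1% in either pool. ELOVL6 widens from 26.0% to 52.9% where ELOVL1 narrows from 54.8% to 18.5%, and the other families keep the same leading gene.

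FABP3, the heart-type fatty acid binding protein, was by far the most abundant of the 9 genes. On chromosome 2 from 127598721 to 127609986, it was 359 FPKM in the injected pool, rank 297 of all symbols, and 852 FPKM in the sham pool, rank 202. It was 2.38-fold lower after injection, with a log2 difference of -1.25. Of the 500 genes of similar level, 11.6% were as low or lower and 23% were lower by 2-fold or more, so a difference of this size was not rare among abundant genes. With the same total in both pools the log2 difference was -0.85, under 2-fold. The locus is shared in the files with LOC100851643, listed at 0 in both pools.

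FABP5, the epidermal-type carrier, differed little between the pools. Its locus is on chromosome 14 from 41654257 to 41661034, and it was 17.0 FPKM after siRNA injection against 16.2 FPKM after the sham, a log2 difference of 0.062. The ratio of FABP3 to FABP5 was 21.1 in the injected pool and 52.6 in the sham pool. FABP3 nevertheless held 95.2% and 97.1% of the summed FPKM of 8 FABP genes. Among the others, FABP6, the ileal bile acid carrier, was 0.503 against 7.82 FPKM, with a log2 difference of -2.55, the lowest of the wider lists described below. FABP7, of brain, was 0.326 against 1.61 FPKM, while FABP2, FABP4 and FABP9 were listed at 0 in both pools. DBI, the acyl-CoA binding protein gene, was as abundant as FABP3 in the sham pool, at 823 FPKM, and was 939 FPKM in the injected pool. The ratio of FABP3 to DBI was 0.382 in the injected pool and 1.04 in the sham pool.

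Markers of the embryonic lineages and of other cell types differed between the pools in both directions. Of 9 trophectoderm markers 8 were in the files, with a summed level of 7683 FPKM after siRNA injection against 17586 FPKM after the sham. KRT8 and KRT18 carried that gap, and the other 6 markers summed to 683 against 581 FPKM, a sum made after the values were seen, as are the others below that leave out a gene. KRT8, KRT18 and CDX2 were lower by 2-fold or more, and the interferon tau genes IFNT2 and IFNT3 higher by 2-fold or more. The ratio of FABP3 to each marker was also made after the values were seen. It was lower in the injected pool for 6 of the 8 and higher for KRT8 and CDX2. FABP3 to GATA2 was 0.946 against 1.85, FABP3 to KRT18 0.0666 against 0.0758, and FABP3 to KRT8 0.223 against 0.148. All 5 markers of the inner cell mass and epiblast had negative log2 differences, and of all compared genes 41.7% lay above 0. Only POU5F1 of the 5 was lower by 2-fold or more, and SOX2 was at -0.025 with the same total. The 5 markers summed to 104.3 against 248 FPKM, and to 48.04 against 78.1 FPKM without POU5F1. Of 10 fibroblast and mesenchyme markers 4 were compared, with VIM and LUM higher by 2-fold or more in the injected pool and COL1A1 listed at 0 in both, and the list summed to 77.3 against 52.7 FPKM, or 58.8 against 51.3 FPKM without VIM. The 10 cumulus and granulosa markers summed to 13.9 against 26.9 FPKM, and to 10.6 against 11.1 FPKM without HSD3B1, with PTX3 and AMH listed at 0. The 7 hypoblast markers summed to 210.5 against 189 FPKM, with SOX17 listed at 0, and of the 5 compared 4 were above 0 and HNF4A was lower by 2-fold or more. The part of these differences in the lipid gene values was not tested. In pooled embryos, fewer cells of a type and less RNA per cell cannot be told apart.

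ACSL3, an acyl-CoA synthetase found on the endoplasmic reticulum and on growing lipid droplets, was 27.7 FPKM after siRNA injection against 28.05 FPKM after the sham. The ratio was 0.988, and the log2 difference of -0.017 was 0.15 with the median of all genes set to 0. Its locus on chromosome 2 runs from 116940852 to 117017061. LOC508628, a pseudogene in the RefSeq table, has the same locus in the files and was 203 against 284 FPKM. Whether reads had to be divided between these 2 genes was not tested, so the ACSL3 value is uncertain. Among the other synthetases, ACSL1, the main form of adipose tissue and liver, was 8.48 against 4.78 FPKM, ACSL4, which prefers arachidonate, 4.05 against 2.29 FPKM, and ACSL6 14.3 against 13.9 FPKM. ACSL3 held 50.9% of the family's FPKM in the injected pool and 57.0% in the sham pool, the leading share in both.

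CPT1A, which makes the acyl-carnitine that enters mitochondria, was also nearly equal. On chromosome 29 from 47787620 to 47850133, it was 4.97 FPKM after siRNA injection against 4.72 FPKM after the sham, with a log2 difference of 0.060. This turned to -0.21 after a fit on locus length, and CPT1A has one of the longer loci of the 9, at 62514 bp. CPT1C, the neuronal form, was 1.21 against 1.75 FPKM. CPT2, the inner membrane partner, was 4.38 against 4.48 FPKM and SLC25A20, the carnitine carrier between them, 21.3 against 22.3 FPKM. All 4 import genes differed by less than 2-fold.

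The perilipins PLIN2 and PLIN3 coat lipid droplets in most cell types, and both were lower or nearly equal in the injected pool. PLIN2, on chromosome 8 from 26595454 to 26609438, was 23.8 FPKM after siRNA injection against 36.2 FPKM after the sham, a log2 difference of -0.59. PLIN3, on chromosome 7 from 17882823 to 17903276, was 19.2 against 22.2 FPKM, a log2 difference of -0.20 that was 0.18 with the same total in both pools. Neither reached 2-fold, and 42.2% and 52.6% of genes of similar level were as low or lower. PLIN2 held 55.3% of the perilipin FPKM in the injected pool and 62.0% in the sham pool. The ratio of PLIN2 to PLIN3 was 1.24 against 1.63. PLIN1, the perilipin of adipocytes, was 0.0257 FPKM in the injected pool and listed at 0 in the sham pool, and PLIN4 and PLIN5 were listed at 0 in both.

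**Figure D3:**
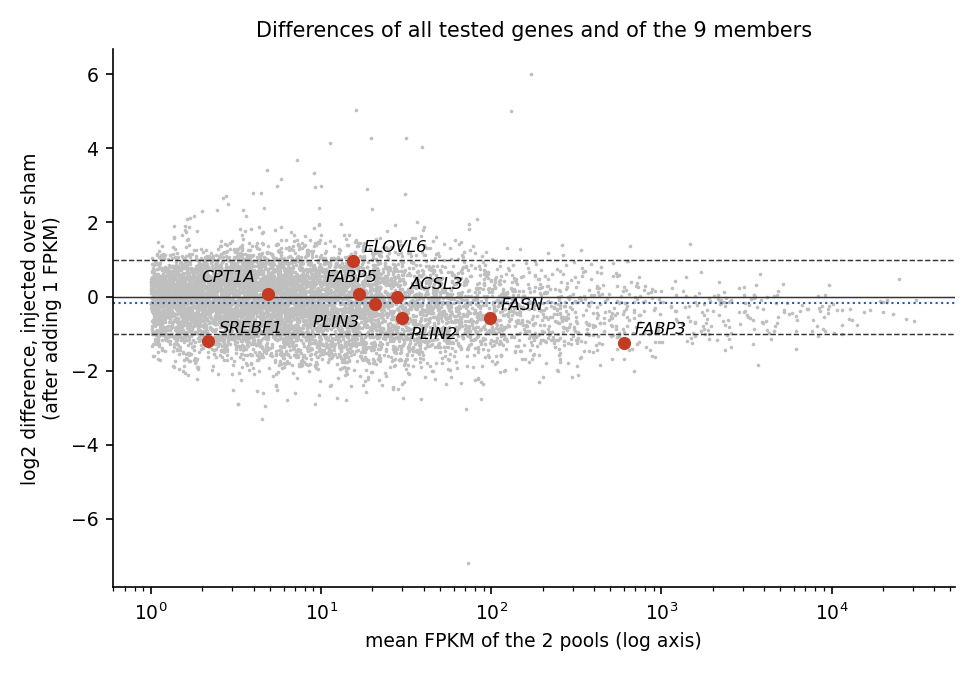
Log2 difference of injected over sham (vertical, after adding 1 FPKM) against the mean FPKM of the 2 pools (horizontal, log axis), 1 library per group. Grey points are the 7984 compared genes, red points the 9 genes named, dashed lines 2-fold, and the blue dotted line the median of all genes at -0.17. SREBF1 and FABP3 lie below the lower dashed line and ELOVL6 just under the upper one.

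The same pathway was then read more widely, in 9 lists by role that together name 140 genes, the 10 members included. Of these, 131 were in the files and 79 had a mean of at least 1 FPKM. In the injected pool 4 of the 79 (5.06%) were higher by 2-fold or more and 16 (20.3%) lower by 2-fold or more, next to 4.92% and 15.7% of all genes. The median log2 difference was -0.23. With both pools at the same total, 11 genes were higher and 7 lower. Each of the 20 genes kept its sign under both other scalings and the length fit. Both shares were near the background. The counts of each list below are to be read beside the same shares of all genes, 4.92% higher and 15.7% lower.

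In fatty acid synthesis, 7 of 11 genes were compared, with a median of -0.58 that was -0.19 with the same total and 0.00013 without the filter, and 2 were lower by 2-fold or more. Both belong to the separate fatty acid synthesis of mitochondria. OXSM, its ketoacyl synthase, was 2.06 FPKM after siRNA injection against 6.85 FPKM after the sham, and MECR, its enoyl reductase, 0.842 against 3.08 FPKM. MCAT, the malonyltransferase of that route, was 1.66 against 3.61 FPKM, within 2-fold on the log2 scale. ACSS2, which makes acetyl-CoA from acetate, had the highest difference of the list, 0.98, at 6.03 against 2.56 FPKM. In desaturation and elongation, 12 of 16 were compared, with 3 lower by 2-fold or more and a median of -0.17 that was 0.14 with the same total. TECR, the reductase of the last step of each elongation cycle, was 3.30 against 15.2 FPKM, 4.62-fold lower. FADS3, of the fatty acid desaturase cluster, was 36.2 against 92.1 FPKM. HSD17B12, the ketoacyl reductase of the same elongation cycle, was 6.35 against 2.94 FPKM, a log2 difference of 0.90 that is within 2-fold. TECR and HSD17B12 thus differed in opposite directions. PTPLA, PTPLB and PTPLAD1 of the same list had log2 differences of 0.12, -0.43 and -0.028.

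Among 8 regulators compared, SREBF1 was the 1 lower by 2-fold or more and MBTPS1 the 1 higher by 2-fold or more, and the median was -0.51, or -0.16 with the same total. MBTPS1, the site-1 protease that cuts SREBP precursors, was 16.3 FPKM after siRNA injection against 7.47 FPKM after the sham. SCAP, which escorts the precursors from the endoplasmic reticulum, was 5.05 against 9.44 FPKM, and INSIG1, which holds them there and is itself a target of SREBPs, 8.26 against 3.85 FPKM. The liver X receptor genes NR1H2 and NR1H3, which raise SREBF1 transcription in other tissues, were 4.31 against 8.61 FPKM and 1.19 against 2.80 FPKM. PPARA and RXRB were listed at 0 in both pools.

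Of 21 uptake and carrier genes 9 were compared, 3 lower by 2-fold or more (FABP6, SLC27A4 and FABP3) and 2 higher by 2-fold or more, SLC27A1 among them, with a median of 0.062, or 0.51 with the same total. SLC27A1 and SLC27A4 encode fatty acid transport proteins, and they differed in opposite directions, at 3.95 against 1.23 FPKM and 1.37 against 4.94 FPKM. CD36, a fatty acid receptor, and LPL, lipoprotein lipase, were below 1 FPKM in both pools. In activation, 9 of 12 were compared and ACOT8, a peroxisomal thioesterase that undoes activation, was the 1 lower by 2-fold or more, at 42.3 against 106.1 FPKM. The median was -0.017, and it was 0.15 with the median of all genes set to 0, 0.37 with the same total and -0.35 with a minimum mean of 5 FPKM.

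In the list of lipid droplet proteins, 7 of 17 were compared, with a median of -0.20 that was 0.18 with the same total. G0S2, an inhibitor of the triglyceride lipase ATGL, had the highest difference of all the lipid lists. It was 21.4 FPKM after siRNA injection against 4.81 FPKM after the sham, 4.45-fold higher, at percentile 99.6 of all compared genes. AUP1, a droplet and endoplasmic reticulum protein, was the 1 lower by 2-fold or more, at 19.1 against 53.7 FPKM. HILPDA, another lipase inhibitor of droplets, was 3.36 against 2.88 FPKM, and CIDEA, a droplet fusion protein, 1.72 against 2.30 FPKM. None of the 4 lipolysis genes in the files reached a mean of 1 FPKM, among them LIPE, hormone-sensitive lipase, at 0.536 against 0.668 FPKM.

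In glycerolipid synthesis, 9 of 15 genes were compared, with a median of -0.52, or -0.17 with the same total, and AGPAT2, an enzyme that makes phosphatidic acid, lower by 2-fold or more, at 4.93 against 16.0 FPKM. SOAT1, which makes cholesteryl esters, had the highest difference of that list, 0.76, at 30.2 against 17.4 FPKM. DGAT1 and DGAT2, whose enzymes complete triglyceride, were 0.660 against 1.51 FPKM and 1.72 against 2.19 FPKM. In mitochondrial import and oxidation, 18 of 19 were compared, with a median of -0.27 that was 0.056 with the same total. Of the 18, 4 were lower by 2-fold or more and 0 higher by 2-fold or more, next to 15.7% and 4.92% of all genes. With the same total ECI1, ECI2, ACADS and HADHA, the 4 lower genes, were at -0.94, -0.94, -0.72 and -0.75, within 2-fold. The enoyl-CoA isomerase genes ECI1 and ECI2 were 3.27 against 9.31 FPKM and 5.52 against 15.0 FPKM. ACADS, the short-chain acyl-CoA dehydrogenase, was 13.5 against 29.97 FPKM and HADHA, of the trifunctional protein, 2.31 against 5.90 FPKM. ACADM, the medium-chain dehydrogenase, had the highest difference of the list, 0.58, at 4.93 against 2.95 FPKM.

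Cholesterol synthesis was set beside these lists because it shares the SREBP system. Of its 19 genes in the files, 15 were compared, with 2 higher by 2-fold or more, 3 lower by 2-fold or more and a median log2 difference of 0.34. That median was above 0 under each alternative, and lowest, at 0.15, with a minimum mean of 5 FPKM. Of the 15 genes, 8 were above 0 and 7 below. Summed over the genes in the files, FPKM after siRNA injection was 77.4% of the sham value for cholesterol synthesis. It was 79.5% for fatty acid synthesis and 99.2% for regulators. The median of regulators was below 0 under each alternative, and that of fatty acid synthesis under each except the one without a filter on low values, where it was 0.00013. The difference between the lists was not tested. SC5DL, a sterol desaturase, was 5.85 FPKM after siRNA injection against 2.12 FPKM after the sham, and FDPS, which makes farnesyl diphosphate, was 140.7 against 318 FPKM. LSS, lanosterol synthase, was listed at 0 in both pools although its neighbours in the pathway were expressed, so a 0 in these files can also be a failed estimate.

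**Figure D4:**
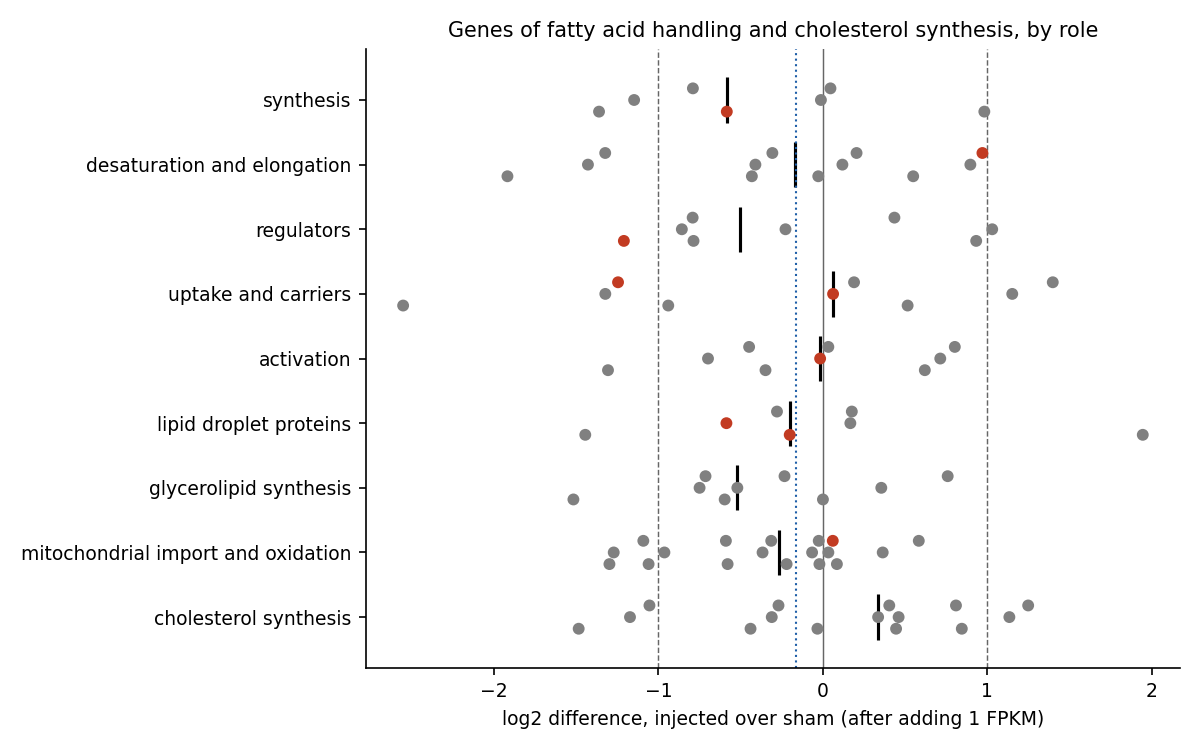
Log2 difference of injected over sham (horizontal, after adding 1 FPKM) of the compared genes of each list by role (vertical), 1 library per group. Red points are the 9 genes named at the start, grey points other genes, black bars list medians, dashed lines 2-fold and the blue dotted line the median of all genes. Each list spreads across 0, and G0S2 and FABP6 lie farthest to the right and left.

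**Figure D5:**
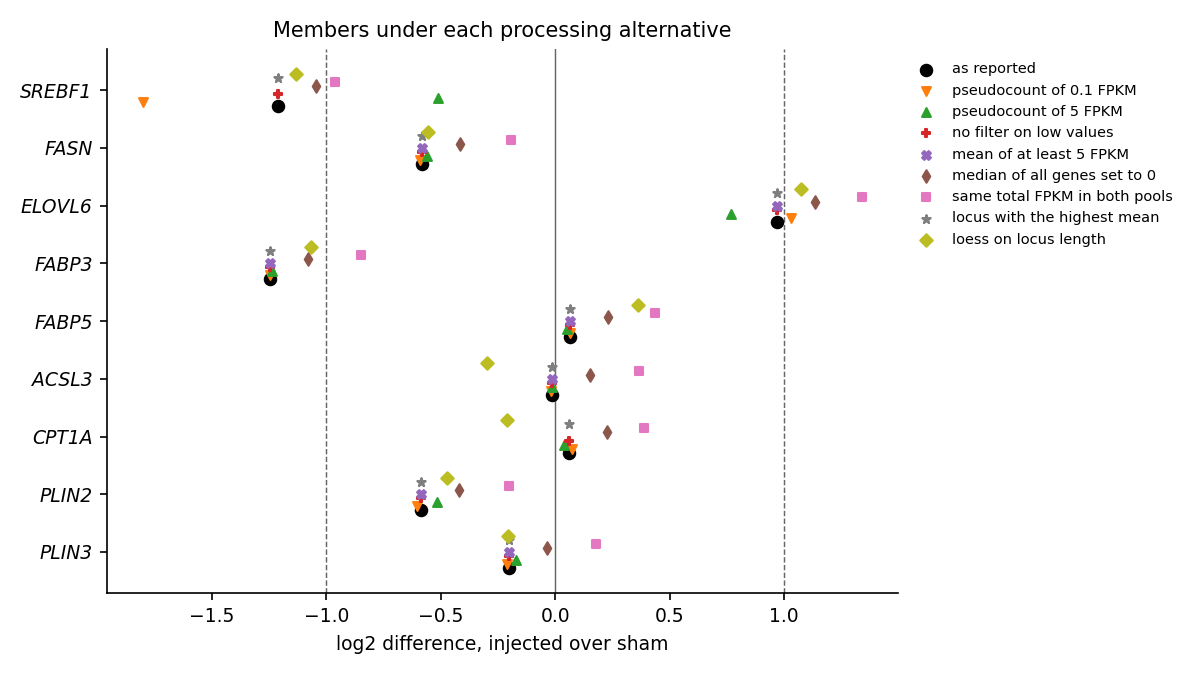
Log2 difference of injected over sham (horizontal) of the 9 genes (vertical) as reported (black) and under each alternative in which the gene was compared (colours and shapes), with dashed lines at 2-fold. SREBF1, FASN, FABP3 and PLIN2 stay left of 0 and ELOVL6 and FABP5 right of it, while ACSL3, CPT1A and PLIN3 cross it.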

How the data were processed

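RNA of each embryo pool was amplified, made into a library and sequenced once. The authors mapped reads to bosTau7 with TopHat and deposited FPKM values from Cufflinks 2.0.2, per the labels and the study's methods, scaled by the upper quartile and corrected for biased fragment sequences. The gene annotation is not given in the sources used here. Amplification and the normalization can both shift levels between pools.

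Both files hold the same 22220 loci, of which 615 have no symbol and were left out. Loci with the same symbol were summed. No counts were at hand, so no count test was run, and with 1 library per group no test was run at all. Members and lists were chosen with earlier results of these data known. Named genes are the 10 members, their families, list genes past 2-fold and list extremes. 1 list gene is not reported here. Some others are named for their role, after their values were seen. Alternatives changed the pseudocount, filter, scaling, locus choice, locus length fit (loess, span 0.3) and threshold. No promoter or protein sequences were used here. Computations used Python 3.11.15, with pandas 2.3.3 and NumPy 2.4.6 for tables, statsmodels 0.14.6 for the loess fit, and matplotlib 3.10.9 for plots.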

Additional observations from a re-analysis of the deposited data

How the results depend on the processing

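Of 70 log2 differences of the 9 genes under alternatives, 59 kept their sign and their side of 2-fold. The sign turned for ACSL3, to 0.15 with the median of all genes set to 0 and 0.37 with the same total in both pools, for PLIN3, to 0.18 with the same total, and for CPT1A, to -0.21 after the length fit. ELOVL6 passed 2-fold 4 times, and FABP3 (same total) and SREBF1 (same total, pseudocount of 5 FPKM) no longer did. The count of the 9 genes higher by 2-fold or more went from 0 to 1 with a pseudocount of 0.1 FPKM, the median set to 0, the same total, the length fit and a 1.5-fold threshold. The count lower went from 2 to 1 with a pseudocount or a minimum mean of 5 FPKM, and to 0 with the same total or a 3-fold threshold. Their median was -0.035 with the median of all genes set to 0 and 0.18 with the same total.

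Of the 79 list genes, 4 were higher, and this became 9 with a pseudocount of 0.1 FPKM, 2 with 5 FPKM, 8 with the median set to 0, 11 with the same total, 12 at 1.5-fold and 1 at 3-fold. The 16 lower became 8 with a pseudocount of 5 FPKM, 10 with a minimum mean of 5 FPKM, 7 with the same total, 28 at 1.5-fold and 2 at 3-fold. Of all genes, 393 were higher, and this became 692 and 119 with pseudocounts of 0.1 and 5 FPKM, 227 with a minimum mean of 5 FPKM, 616 with the median set to 0, 963 with the same total, 1186 at 1.5-fold and 71 at 3-fold. The 1255 lower became 598 with a pseudocount of 5 FPKM, 587 with the same total, 2436 at 1.5-fold and 303 at 3-fold. Counts that changed by no more than 1.5-fold are left out of this section. Among them are 1637 lower with a pseudocount of 0.1 FPKM and 882 lower with the median set to 0, of all genes. Beyond what each setting does by construction, the cause was not tested. Without the filter on low values the medians of synthesis and of desaturation and elongation were 0.00013 and 0.0091. No paired analysis was possible because each group had 1 library, so no replicate could be left out either. A promoter GC fit, a motif search and a protein comparison were planned and not run. Without fragment counts, no counting error can be given for low genes such as SREBF1.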

Other observations

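Several genes of the lists lay below a mean of 1 FPKM, where single fragments weigh most, and are given as values only, named after those were seen. ME1, which supplies NADPH for fatty acid synthesis, was 0.752 FPKM after siRNA injection against 0.123 FPKM after the sham. LIPA, the lysosomal acid lipase gene, was 1.01 against 0.227 FPKM, and ACBD5, of a peroxisomal acyl-CoA binding protein, 1.27 against 0.203 FPKM. FITM1, a droplet-forming protein best known in muscle, was 0.0827 against 1.41 FPKM, and MGLL, monoglyceride lipase, 0.481 against 1.22 FPKM.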
